A study of Danio rerio with 6 samples.

Results

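The genes that make prostaglandins and leukotrienes were described in zebrafish larvae that carry a mutation in P2RY11 and in their wild-type siblings. The set was given as 10 gene names, and 9 of them were analysed among 19071 genes: the cyclooxygenase genes ptgs1, ptgs2a and ptgs2b, the synthase genes ptges and ptgis, the lipoxygenase genes alox5a and alox12, and the leukotriene genes lta4h and ltc4s. The tenth, alox5ap, was not analysed here. The set was chosen by this same difference between mutants and WT siblings, higher ptgs2b and lower lta4h, and by function, so the values of these 9 genes are given as a description, without p-values. Calls of these 9 genes, under any setting, belong to that description, and nothing is concluded from them.

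P2RY11 is a receptor for extracellular nucleotides. The mutants carry a frameshift deletion in p2ry11 made with CRISPR/Cas9, present in every cell and from the earliest stage. The paper writes these mutants as P2RY11-/- in its figures. Their controls are labelled as WT siblings, and the cross that gave both groups is not described. Whole larvae were pooled at 3 dpf (days post-fertilization) after growth in embryo medium with methylene blue, with no other treatment named for either group, and RNA from 3 pools of each genotype was sequenced, 6 libraries in all. Whole animals were used, so that no value belongs to a single tissue, and fewer cells of a type cannot be told apart from less RNA per cell. Separate clutches for the pools are not stated in the labels, and p-values therefore measure the spread between these libraries.

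Prostaglandins and leukotrienes are short-lived signaling lipids made from arachidonic acid, which phospholipases A2 cut from membranes. Cyclooxygenases turn it into prostaglandin H, from which separate synthases make prostaglandin E, prostacyclin, prostaglandin D or thromboxane. In the other branch, 5-lipoxygenase and its activating protein make leukotriene A, which is then hydrolyzed to leukotriene B, an attractant of neutrophils, or joined to glutathione to give leukotriene C. In zebrafish, prostaglandin E supports the formation of blood stem cells, and leukotriene B guides neutrophils toward wounds.

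Expression was measured as FPKM, in which the fragments of a gene are divided by its transcript length and by the size of the library. The depth behind the FPKM is unknown. The mutated gene p2ry11 itself had FPKM of 0.707, 0.853 and 1.02 in the WT sibling libraries and was listed at 0 in every mutant library (exact permutation test, both directions, p = 0.1, the smallest that 3 libraries against 3 allow). All 13 markers of larval tissues such as muscle, neurons, lens, liver and skin were above 0 in every library. WT sibling replicate 3 stood apart, with a median FPKM of 3.81 against 4.52 and 4.84 in the other WT siblings and 5.10 to 5.39 in mutants, and 180 genes at 0 against 48 to 102 elsewhere. Values without it are given for the genes described below where it changed a call or moved a difference by over 1.5 times. Differences are the mutant minus the WT sibling mean of log2(FPKM + 1), a scale that understates the change of genes with low FPKM. Their standard errors and all calls come from a limma fit over 18432 genes whose mean FPKM reached 0.5, called at an adjusted p under 0.05. The median difference over all genes was 0.16 and moved with the scaling, to 0.28 for TPM, 0.012 for median-of-ratios scaling and 0.0072 for quantile normalization. In mutants 2 of the 13 tissue markers rose and 2 fell, and of 9 erythroid markers 0 rose and 6 fell. Beside these stand 8.23% higher and 3.98% lower among all genes. Without WT sibling replicate 3, 3 and 6 tissue markers and 0 and 7 erythroid markers did so, beside 20.1% and 8.11%. Presence above 0 therefore does not show that the groups had the same make-up of tissues.

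Of the 9 genes, 1 was called higher in P2RY11 mutants (ptgs2b), 1 lower (ltc4s) and 7 did not pass. Over all genes tested 12.2% were called, 8.23% higher and 3.98% lower. The called genes of the transcriptome were 1517 higher and 733 lower with the deposited values, 1768 and 526 as TPM, 666 and 1046 with median-of-ratios scaling, and 987 and 1304 when quantile normalized. Without WT sibling replicate 3, 3 of the 9 were higher (ptgs2b, alox5a and alox12) and 1 lower (ltc4s), beside 20.1% and 8.11% of all genes. The share of all genes called was 1.54%, 1.49% and 1.05% without mutant replicate 1, 2 or 3. It was 2.05% without WT sibling replicate 1 and 10.3% without WT sibling replicate 2. Calls said below to end with a library left out stand beside these shares. The criteria of the study, a fold above 1.5 and an unadjusted p below 0.05, were also applied, here with the p from limma. By these ptgs2b and alox5a were higher and ltc4s lower, beside 19.7% of all genes in either direction. The paper lists lta4h among the genes lower in mutants, while here its fold was 1.22, short of 1.5. In 3 of the 9 genes, ptgs2b, alox5a and alox12, all mutant libraries exceeded all WT sibling libraries, as was true of 35% of all tested genes. In lta4h and ltc4s every mutant library lay below, as in 11.7% of all genes. The median difference of the 9 genes was 0.17. All 9 passed the filter on low values, ltc4s only through its WT sibling level, since its mean of 0.314 FPKM in mutants lay under the filter.

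**Figure D1:**
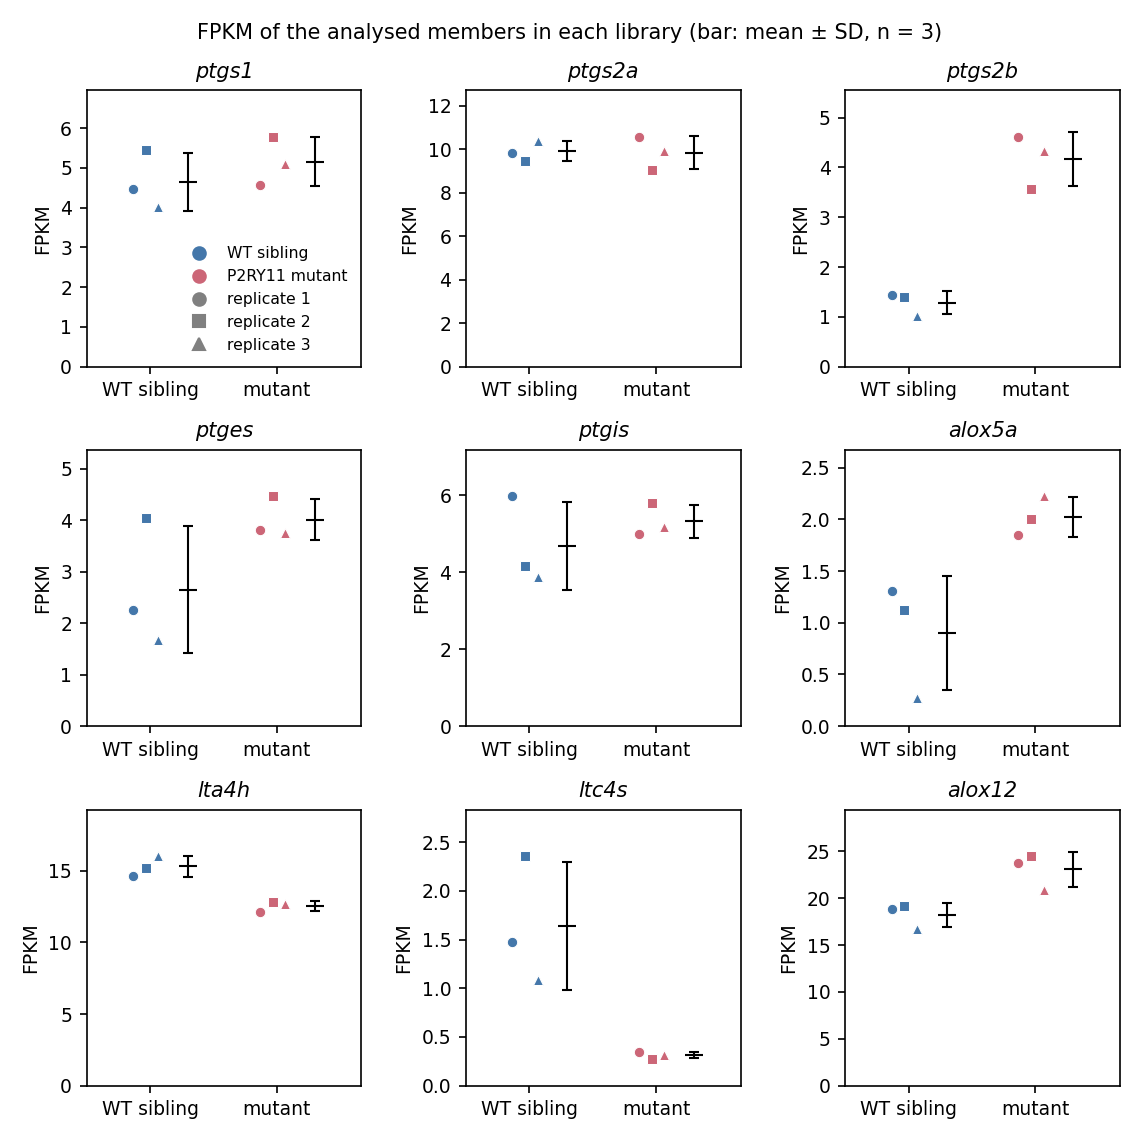
FPKM (vertical axes, linear from 0, one scale per gene) of the 9 genes in each library, blue for WT siblings and red for P2RY11 mutants, with the marker shape giving the replicate and the bar the mean ± SD (n = 3). The groups are apart in ptgs2b, alox5a and alox12 (mutants above) and in lta4h and ltc4s (mutants below), and they overlap in ptgs1, ptgs2a, ptges and ptgis.

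Of the cyclooxygenase genes, ptgs2b differed most between the groups, and its rise was part of how the set was chosen. Zebrafish have a pair of genes for cyclooxygenase-2, the form that is induced in inflammation and by growth signals, and ptgs2a and ptgs2b lie on different chromosomes. The FPKM of ptgs2b was 1.43, 1.40 and 1.02 in WT sibling replicates 1, 2 and 3 and 4.62, 3.57 and 4.33 in mutant replicates 1, 2 and 3. Every mutant library was thus higher than every WT sibling library, and the lowest WT sibling was replicate 3. The mean was 1.28 ± 0.230 FPKM over the WT siblings and 4.17 ± 0.539 over the mutants (SD, n = 3 each), a 3.25-fold difference of the means. The log2 difference was 1.18 (SE 0.142), 1.09 without WT sibling replicate 3, and 1.05 after median-of-ratios scaling, 0.94 when quantile normalized and 1.503 as TPM. The call of ptgs2b did not hold without mutant replicate 3, where the difference was 1.16 and 1.05% of all genes were called.

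Its duplicate ptgs2a was the most abundant cyclooxygenase gene and nearly level between the groups. It had 9.84, 9.48 and 10.4 FPKM in WT siblings and 10.6, 9.04 and 9.91 in mutants, and the groups overlapped. The log2 difference of ptgs2a was -0.0097 (SE 0.0988) and 0.022 without WT sibling replicate 3, with -0.19 after median-of-ratios scaling and 0.091 as TPM. The gene ptgs1 encodes cyclooxygenase-1, the form that most tissues make without induction. Its FPKM was 4.46, 5.46 and 4.03 in WT siblings and 4.56, 5.79 and 5.11 in mutants, again with overlap. The difference of ptgs1 was 0.13 (SE 0.141), 0.046 without WT sibling replicate 3, and changed sign with the scaling, to -0.034 with median-of-ratios scaling and to -0.076 when quantile normalized.

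Taking the cyclooxygenase genes together, ptgs2b made up a larger part of their summed FPKM in mutants. The shares and ratios below restate the rise by which ptgs2b was chosen and add no support to it. The sum was 15.7, 16.3 and 15.4 FPKM in WT siblings and 19.8, 18.4 and 19.3 in mutants. The share of ptgs2b in it was 9.08%, 8.59% and 6.59% in WT siblings and 23.4%, 19.4% and 22.4% in mutants. The share of ptgs2a was 62.6% ± 4.66 in WT siblings and 51.3% ± 2.22 in mutants, and that of ptgs1 29.3% ± 3.75 and 27.0% ± 4.22 (SD, n = 3 each). Multiplying a library by a single factor leaves these shares as they are. The same holds for the log2 ratio of ptgs2b to ptgs2a, which was -2.78, -2.76 and -3.35 in WT siblings and -1.20, -1.34 and -1.19 in mutants. The means of this ratio lay 1.72 apart, and 1.53 apart without WT sibling replicate 3. The ratio of ptgs2b to ptgs1 lay 1.56 higher in mutants, and in mutant replicate 1 both genes were at about the same level, with a log2 ratio of 0.017.

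**Figure D2:**
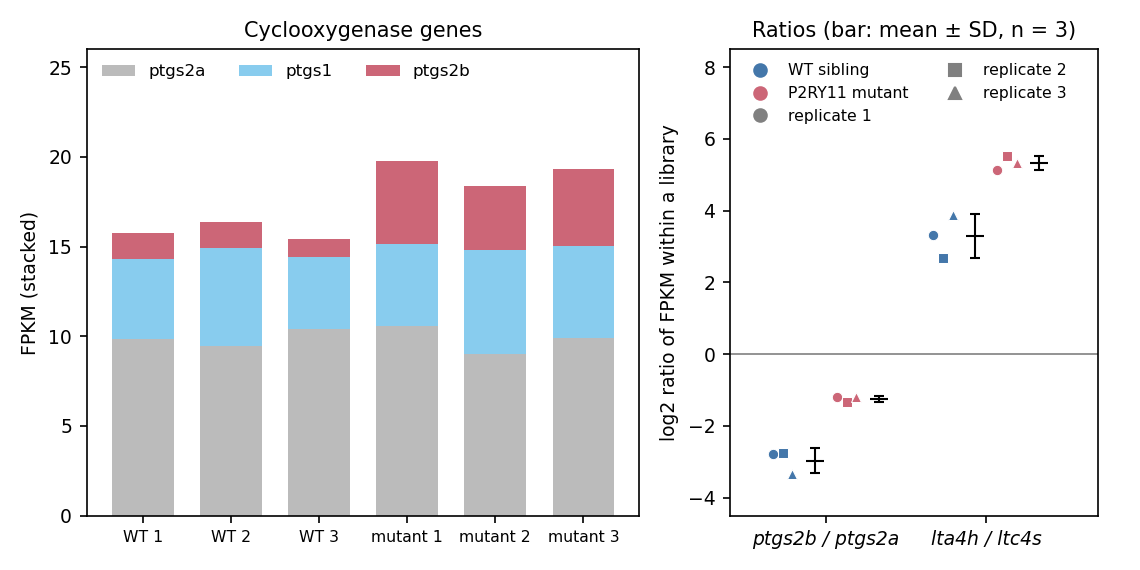
Left, FPKM of ptgs2a, ptgs1 and ptgs2b stacked for each library (linear axis from 0), where the red ptgs2b segment is taller in each mutant library, 19.4% to 23.4% of the stack against 6.59% to 9.08% in WT siblings. Right, log2 ratios within each library of ptgs2b to ptgs2a and of lta4h to ltc4s, with mean ± SD (n = 3), both without overlap between the groups. The set was chosen by the differences of ptgs2b and lta4h, and the mutant mean of ltc4s lay under the filter on low values.

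The synthases that act after cyclooxygenase overlapped between the groups. The gene ptges encodes the inducible microsomal prostaglandin E synthase, which in mammals is often induced along with cyclooxygenase-2. It had 2.25, 4.04 and 1.67 FPKM in WT siblings and 3.82, 4.47 and 3.75 in mutants. The WT siblings of ptges were widely spread, with a coefficient of variation of 46.6%, and WT sibling replicate 2 lay above mutant replicates 1 and 3. The log2 difference of ptges was 0.51 (SE 0.233), and 0.31 without WT sibling replicate 3. It was called higher only when WT sibling replicate 2, the highest of its group, was left out, with a difference of 0.76. The gene ptgis encodes prostacyclin synthase, an enzyme of vessel walls. Its FPKM was 5.98, 4.17 and 3.86 in WT siblings and 4.99, 5.80 and 5.18 in mutants, with the highest value in WT sibling replicate 1. The difference of ptgis was 0.17 (SE 0.161), 0.072 without WT sibling replicate 3, 0.012 with median-of-ratios scaling and -0.030 when quantile normalized. The summed FPKM of 10 vascular endothelium markers ranged from 78.5 to 88.2 in WT siblings and from 82.7 to 86.0 in mutants. Of these markers 1 rose and 1 fell, beside 8.23% and 3.98% of all genes. Without WT sibling replicate 3, 1 rose and 2 fell, beside 20.1% and 8.11% of all genes.

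The lipoxygenase genes were both higher in every mutant library. The gene alox5a encodes 5-lipoxygenase, which starts leukotriene synthesis. Its FPKM was 1.31, 1.12 and 0.271 in WT siblings and 1.84, 1.999 and 2.23 in mutants. The mean was 0.901 ± 0.554 over the WT siblings and 2.02 ± 0.192 over the mutants (SD, n = 3 each), a 2.24-fold difference, and the low WT sibling was replicate 3. The log2 difference of alox5a was 0.71 (SE 0.230) with all libraries, where it was not called, and 0.45 (SE 0.120) without WT sibling replicate 3, where it was. On this scale WT sibling replicate 3 lay 0.80 below the mean of the other WT siblings, a gap larger than the group difference itself. The gene alox12 encodes a lipoxygenase that oxidizes arachidonic acid at another carbon and, in mammals, is known from platelets and skin. It had 18.8, 19.1 and 16.7 FPKM in WT siblings and 23.7, 24.6 and 20.9 in mutants. The difference of alox12 was 0.32 (SE 0.0988), 0.27 without WT sibling replicate 3, where it was called, and 0.14 after median-of-ratios scaling.

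Thrombocytes, the zebrafish counterparts of platelets, and epidermis were therefore checked beside alox12. The 6 thrombocyte markers summed to 32.5 to 47.6 FPKM in WT siblings and to 41.3 to 42.8 in mutants, with thbs1b the most abundant. The low end came from WT sibling replicate 3, and the other WT siblings, at 47.5 and 47.6 FPKM, lay above every mutant library. In mutants 2 of the 6 fell and 0 rose, beside 3.98% and 8.23% of all genes. Those that fell were gp1bb and gp9, which encode subunits of the platelet receptor for von Willebrand factor. They were, like tubb1, picked after their values were seen. As TPM neither passed (adjusted p = 0.0608 for gp1bb and 0.0590 for gp9 from limma). The other 4 markers had positive differences, up to 0.36 for tubb1, and did not pass. Without WT sibling replicate 3 the difference of tubb1 was -0.046, and that of thbs1b went from 0.11 to -0.11. The median difference of the 6 thrombocyte markers went from 0.067 to -0.076 without that library. The 10 epidermis markers summed to 6195 to 7709 FPKM in WT siblings and 5567 to 6754 in mutants. Of these markers 1 rose and 1 fell, beside 8.23% and 3.98% of all genes. The lowest WT sibling sum was again that of replicate 3, and the other WT siblings, at 7709 and 7108 FPKM, lay above every mutant library. Without replicate 3, 1 epidermis marker rose and 3 fell, beside 20.1% and 8.11% of all genes. The part of either list in the value of alox12 was not tested.

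The leukotriene genes that act after 5-lipoxygenase were lower in every mutant library. The gene lta4h encodes the hydrolase that makes leukotriene B, and in zebrafish its level is known to affect resistance to mycobacteria. Its FPKM was 14.6, 15.2 and 16.1 in WT siblings and 12.2, 12.8 and 12.7 in mutants. Both groups were tight, with means of 15.3 ± 0.730 and 12.6 ± 0.355 FPKM (SD, n = 3 each). The log2 difference of lta4h was -0.27 (SE 0.0848), and it was not called. With median-of-ratios scaling it was -0.45 and with quantile normalization -0.37, both called lower, while as TPM it was -0.17 and without WT sibling replicate 3 -0.23, neither called. Under the first 2 of these scalings 1046 and 1304 of all genes were called lower, against 733 with the deposited values.

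The gene ltc4s, for the synthase that joins leukotriene A to glutathione, had the lowest levels of the set in mutants. Its FPKM was 1.47, 2.36 and 1.08 in WT siblings and 0.345, 0.279 and 0.317 in mutants. WT siblings varied widely around a mean of 1.64 ± 0.657, whereas mutants were all close to 0.314 ± 0.0334 (SD, n = 3 each), and the WT sibling mean was 5.23 times the mutant mean. The log2 difference of ltc4s was -0.98 (SE 0.182), -1.13 without WT sibling replicate 3, and -1.06 to -1.35 under the other scalings. Leaving out WT sibling replicate 1 or any single mutant library ended the call of ltc4s. In those settings 1.05% to 2.05% of all genes were called. With each library left out in turn, the difference of ltc4s ranged from -1.13 to -0.79. At levels this low the log2 scale with its added 1 understates the fold. Within a library, the log2 ratio of lta4h to ltc4s was 3.31, 2.69 and 3.89 in WT siblings and 5.14, 5.53 and 5.32 in mutants. The means of this ratio lay 2.03 apart, and 2.33 apart without WT sibling replicate 3. No 1 was added in this ratio, and its ltc4s values in mutants, 0.279 to 0.345 FPKM, lay under the filter of 0.5. With the depth unknown, the size of the ratio in mutants is therefore uncertain.

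Leukocytes are a main source of leukotrienes in vertebrates, and their markers were checked beside alox5a, lta4h and ltc4s. The 11 pan-leukocyte markers summed to 56.1 to 70.0 FPKM in WT siblings and 40.3 to 49.997 in mutants, without overlap. Of the 10 tested, 4 fell and 0 rose, and 3 had a positive difference. Beside these and the next counts stand 3.98% lower and 8.23% higher among all genes. Among the 4 was coro1a, a regulator of actin in leukocytes, which did not pass as TPM (adjusted p = 0.0654 from limma). The others, laptm5, fcer1gl and cyba, did pass as TPM (adjusted p = 0.0306, 0.0455 and 0.0486 from limma). With the replicate number as a block, laptm5 and cyba did not pass (adjusted p = 0.0508 and 0.0608). By contrast, rac2, the most abundant of the list and a small GTPase of leukocytes, had a log2 difference of 0.0046 (adjusted p = 0.982 from limma). Without WT sibling replicate 3 that of rac2 was 0.13. The 11 neutrophil markers summed to 173 to 232 FPKM in WT siblings and 118 to 140 in mutants, a sum made up largely of lyz, the lysozyme gene. Of the 11 neutrophil markers 1 fell, lyz, and 0 rose, and 5 had a positive difference. It had 116.8, 105.1 and 150.8 FPKM in WT siblings and 65.8, 56.5 and 76.6 in mutants. The 10 macrophage markers summed to 19.8 to 21.4 FPKM in WT siblings and 14.9 to 23.5 in mutants. Of the 9 tested, 1 fell, ctss2.1, and 0 rose, and 5 had a positive difference. The log2 difference of ctss2.1 was -0.68 (adjusted p = 0.0373 from limma), and as TPM it did not pass (adjusted p = 0.0609). Other genes of this list, also named after their values were seen, lay on either side. The complement gene c1qb, too low to be tested, was at 0 in mutant replicate 3. By contrast, mfap4 was higher in every mutant library, with a log2 difference of 0.49 (adjusted p = 0.0713 from limma, and 0.0380 without WT sibling replicate 3). The part of these markers in the values of alox5a, lta4h and ltc4s was not tested.

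**Figure D3:**
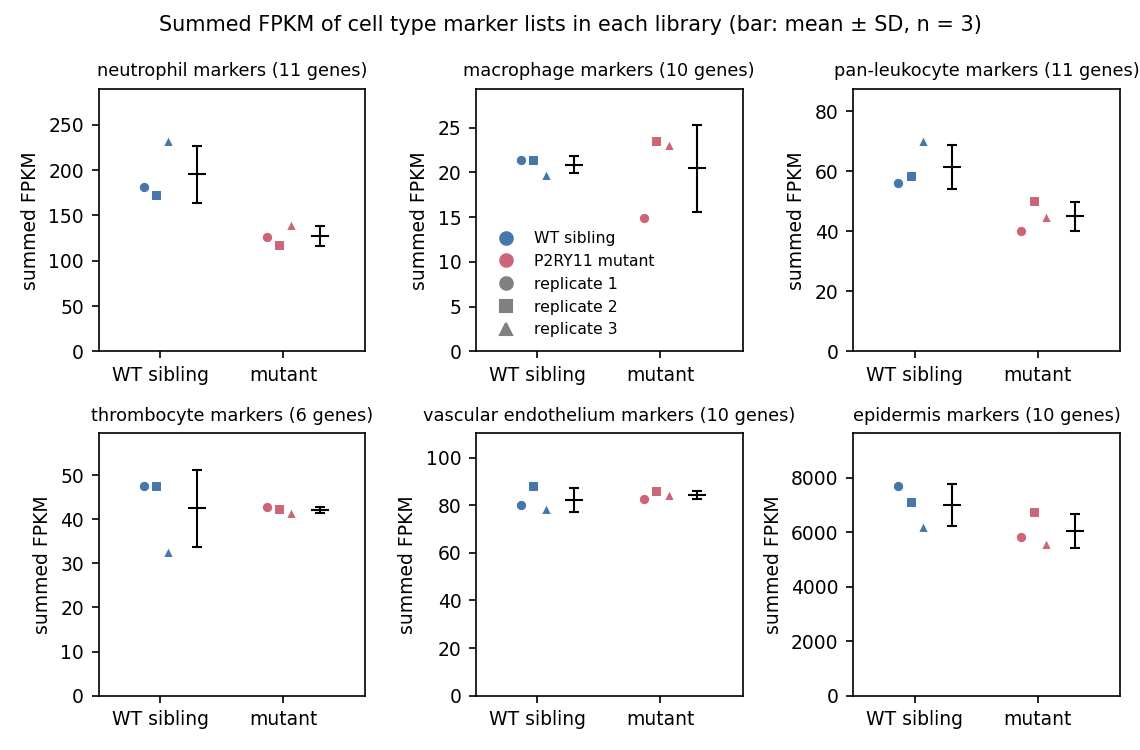
Summed FPKM (vertical axes, linear from 0, one scale per list) of 6 marker lists in each library, blue for WT siblings and red for P2RY11 mutants, with mean ± SD (n = 3). The pan-leukocyte sums (56.1 to 70.0 against 40.3 to 49.997) and the neutrophil sums (173 to 232 against 118 to 140) do not overlap between the groups. The macrophage, thrombocyte, endothelium and epidermis sums do. The overlap of the thrombocyte and epidermis sums rests on WT sibling replicate 3 alone.

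The order of the genes by median FPKM, a scale set per length, was partly shared by the groups. In WT siblings it ran alox12, lta4h, ptgs2a, ptgs1, ptgis, ptges, ltc4s, ptgs2b and alox5a, from 18.8 down to 1.12 FPKM. The first 3 were separated from each other and from the next gene in every library, while the ranges of each later gene overlapped with its neighbor. In mutants it ran alox12, lta4h, ptgs2a, ptgis, ptgs1, ptgs2b, ptges, alox5a and ltc4s, from 23.7 down to 0.317 FPKM. Here ptgis, ptgs1, ptgs2b and ptges overlapped with their neighbors, and alox5a and ltc4s were set apart at the end. Between the groups ptgs2b moved from rank 8 to rank 6 and ltc4s from rank 7 to rank 9. The sum over the 9 genes was 59.2 ± 3.72 FPKM over the WT siblings and 66.5 ± 1.97 over the mutants (SD, n = 3 each).

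**Figure D4:**
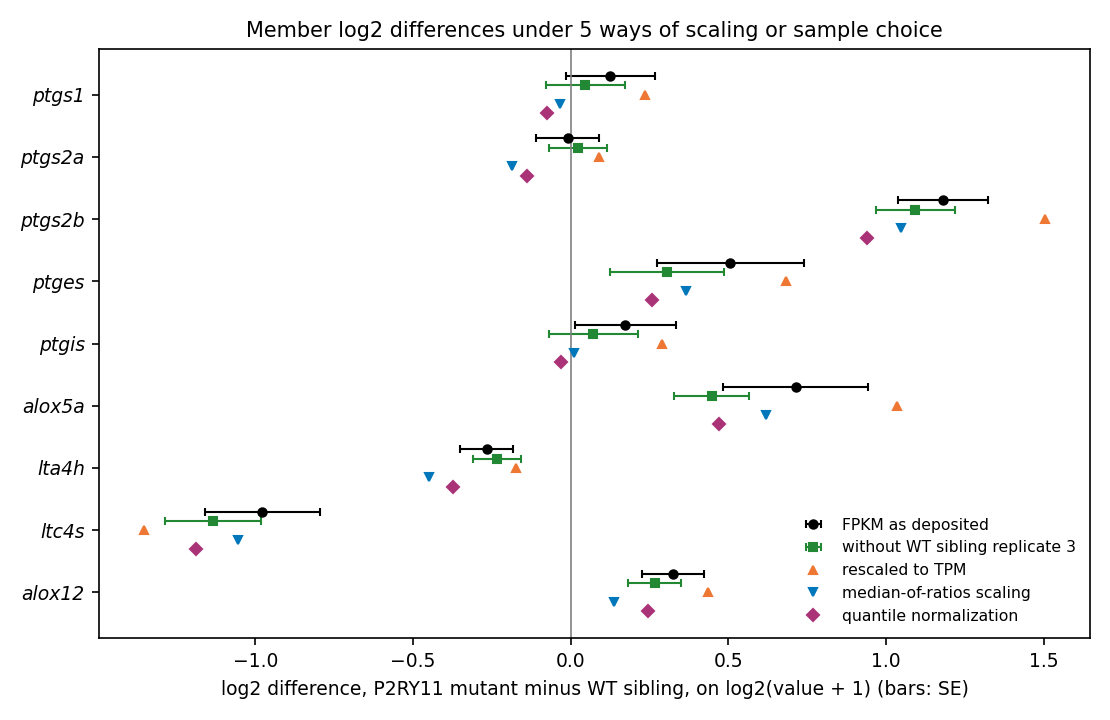
Log2 difference between P2RY11 mutants and WT siblings (horizontal axis, on the log2(value + 1) scale) for the 9 genes with the deposited FPKM, without WT sibling replicate 3, as TPM, and after median-of-ratios scaling or quantile normalization; bars are SE. All 5 values lie above 0 for ptgs2b, ptges, alox5a and alox12 and below 0 for lta4h and ltc4s, while ptgs1, ptgs2a and ptgis change sign.

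The remaining genes of the pathway were taken from 6 lists with 72 names, of which 43 were analysed and 42 tested. In P2RY11 mutants 3 rose and 3 fell, 14.3% of those tested beside 12.2% of all genes, and 36 did not pass. Their median difference was 0.087. At an unadjusted p under 0.05 there were 12. The share of all genes at that threshold alone was not computed, so nothing is read from this count. Without WT sibling replicate 3, 5 rose and 4 fell, beside 28.2% of all genes.

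In the list for phospholipases A2 and substrate release, 1 of 9 genes rose and 0 fell, with a median difference of 0.21. Not every gene of this list encodes a phospholipase that releases arachidonic acid. The gene that rose was pla2g7, which encodes the hydrolase that inactivates platelet-activating factor and does not itself serve to release arachidonic acid. WT siblings had 8.08 ± 0.175 FPKM and mutants 12.2 ± 0.665 (mean ± SD of 3 libraries), a log2 difference of 0.54 (SE 0.0903, adjusted p = 0.0169 from limma). After median-of-ratios scaling pla2g7 did not pass (adjusted p = 0.0627), nor without any one mutant library or without WT sibling replicate 1 (adjusted p of up to 0.0848). The cytosolic phospholipase gene pla2g4f.1 had a difference of 0.60 (adjusted p = 0.0715 from limma), and passed without WT sibling replicate 3, where it was 0.41 (adjusted p = 0.0289). The differences of pnpla8 and pla2g15, which encode a calcium-independent and a lysosomal phospholipase, were 0.39 and 0.21 (adjusted p = 0.106 and 0.144 from limma).

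Of 10 other prostanoid synthase genes, 2 fell and 0 rose, both of them genes for prostaglandin D synthase of the lipocalin type. The gene ptgdsb.1 had 94.1, 96.0 and 109.9 FPKM in WT siblings and 32.9, 33.4 and 41.8 in mutants. The groups were far apart, and no other gene of the pathway lists had as large a log2 difference. The mean ± SD of 3 libraries went from 99.998 ± 8.61 to 36.0 ± 4.99 FPKM, a log2 difference of -1.45 (SE 0.118, adjusted p = 0.00175 from limma). The call of ptgdsb.1 held under every scaling and with each library left out in turn. Its neighbor ptgdsb.2 had 9.19, 9.33 and 9.06 FPKM in WT siblings and 6.13, 2.57 and 2.53 in mutants, so that mutant replicate 1 lay between the other mutants and the WT siblings. The difference of ptgdsb.2 was -1.19 (SE 0.268, adjusted p = 0.0362 from limma), and it did not pass without WT sibling replicate 1 or 2 or mutant replicate 2 or 3 (adjusted p of up to 0.133). No gene lies between ptgdsb.1 and ptgdsb.2 in the RefSeq table. They may share reads, but their sequences were not compared. The related gene ptgdsa had 4.49 ± 0.667 FPKM over the WT siblings and 4.86 ± 0.272 over the mutants (SD, n = 3 each). In the same list fam213b, a prostaglandin F synthase gene also called prxl2b, and cbr1, a carbonyl reductase gene, had differences of -0.35 and -0.33 (adjusted p = 0.111 and 0.118 from limma). Without WT sibling replicate 3 that of fam213b was -0.23, and when quantile normalized cbr1 was called lower, at -0.59 (adjusted p = 0.0318).

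Of 8 genes analysed from the list of other lipoxygenase and leukotriene genes, 2 rose and 1 fell, all of them microsomal glutathione transferase genes. None of the 8 is a lipoxygenase gene, since the lipoxygenase names of this list were not analysed. The human counterpart of mgst2 can make leukotriene C, the reaction that ltc4s also carries out. The FPKM of mgst2 was 11.9, 11.7 and 14.2 in WT siblings and 20.9, 23.3 and 24.3 in mutants. In mutants it rose, opposite in direction to ltc4s, with a log2 difference of 0.81 and an SE of 0.108 (adjusted p = 0.00919 from limma). The call of mgst2 held under every scaling, but not without mutant replicate 2 or 3 (adjusted p of up to 0.0591). The neighboring genes mgst1.1 and mgst1.2, whose products protect membranes from peroxides, went in opposite directions. The first, mgst1.1, went from 4.27 ± 0.504 to 6.55 ± 0.210 FPKM (SD, n = 3 each; difference 0.52, SE 0.115, adjusted p = 0.0339 from limma), and the second, mgst1.2, from 10.3 ± 2.17 to 6.62 ± 0.166 (difference -0.56, SE 0.145, adjusted p = 0.0496). Neither passed after median-of-ratios scaling (adjusted p = 0.0570 for mgst1.1 and 0.0511 for mgst1.2) or without WT sibling replicate 1 or any one mutant library (adjusted p of up to 0.129 and 0.159). Nor did mgst1.1 pass when quantile normalized (adjusted p = 0.0626) or mgst1.2 as TPM (adjusted p = 0.0540). Reads may be shared between these neighbors, which was not tested. The gamma-glutamyl transferase gene ggt5a, which trims leukotriene C, had a difference of 0.28 (adjusted p = 0.116 from limma).

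None of the 9 genes of breakdown and transport passed the test in limma, and 1 had an unadjusted p under 0.05, ptgr1. It encodes a reductase that inactivates prostaglandins and leukotriene B and had a difference of -0.21 (adjusted p = 0.108 from limma). After median-of-ratios scaling ptgr1 was called lower, at -0.40 (adjusted p = 0.0446). The gene hpgd, for the dehydrogenase that begins prostaglandin breakdown, had a difference of 0.19, and 0.12 without WT sibling replicate 3 (adjusted p = 0.246 and 0.353 from limma). For abcc4, which encodes an exporter of prostaglandins, the difference was 0.54 (adjusted p = 0.241 from limma). WT sibling replicate 3 had 1.24 FPKM of abcc4 against 4.09 and 3.85 in the other WT siblings, and without it the difference was 0.16. The epoxide hydrolase gene ephx2 had 5.28, 6.68 and 3.24 FPKM in WT siblings and 3.24, 3.72 and 2.86 in mutants, and WT sibling replicate 3 fell within the mutant range. Its difference was -0.47 (adjusted p = 0.178 from limma), and without that library -0.70, which passed (adjusted p = 0.00721), as did -0.70 when quantile normalized (adjusted p = 0.0397).

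Receptor genes were low in both groups and did not pass the test. Of the prostanoid receptors 6 were analysed and 5 tested, and their summed FPKM was 3.92, 5.01 and 1.84 in WT siblings and 5.28, 4.83 and 5.09 in mutants. WT sibling replicate 3 gave the lowest sum. The largest difference was that of ptger4b, a receptor gene for prostaglandin E, at 0.43 (adjusted p = 0.211 from limma), and 0.18 without WT sibling replicate 3. The prostacyclin receptor gene ptgir had 0.27, and the prostaglandin E receptor genes ptger2a and ptger1b had 0.17 and 0.087 (adjusted p = 0.340, 0.529 and 0.678 from limma). Without WT sibling replicate 3 these were 0.13 for ptgir, -0.010 for ptger2a and 0.035 for ptger1b. The cysteinyl leukotriene receptor gene cysltr1, the only leukotriene receptor analysed, averaged 0.616 ± 0.0911 FPKM over the WT siblings and 0.597 ± 0.153 over the mutants (SD; adjusted p = 0.918 from limma). The difference of cysltr1 was -0.020, and -0.042 without WT sibling replicate 3.

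**Figure D5:**
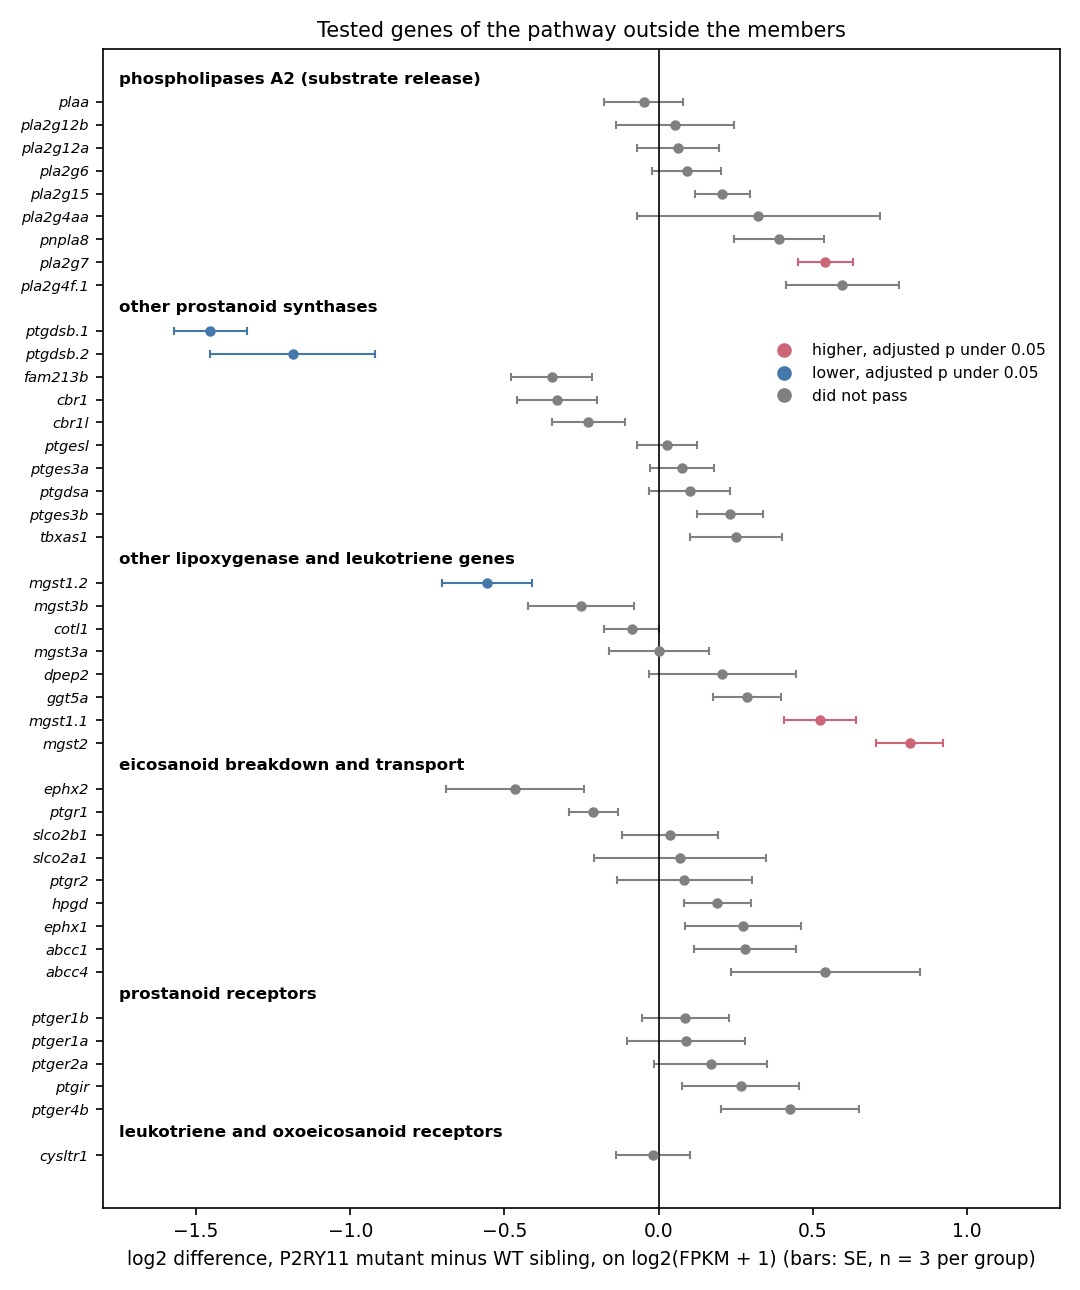
Log2 difference between P2RY11 mutants and WT siblings (horizontal axis, on the log2(FPKM + 1) scale, with SE) for the 42 tested genes of 6 pathway lists, red for genes that rose, blue for genes that fell and grey for genes that did not pass. The lowest points are ptgdsb.1 at -1.45 and ptgdsb.2 at -1.19, and the highest is mgst2 at 0.81.

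The genes whose profile over the 6 libraries was most like that of ptgs2b, by Euclidean distance of centered log2(FPKM + 1) among 17954 named genes, were si:dkey-14o6.8, si:ch211-223a21.6 and CABZ01069016.1, at distances of 0.140, 0.142 and 0.167. All 3 were near 0 in WT siblings, with means of 0.0924, 0.174 and 0.152 FPKM, and averaged 1.39, 1.72 and 1.61 FPKM in mutants. For lta4h they were smad5, a transducer of bone morphogenetic protein signals, cyr61l2 and agfg1b, at distances of 0.0398, 0.0474 and 0.0475. The FPKM of smad5 was 17.7 ± 0.787 over the WT siblings and 14.6 ± 0.251 over the mutants (SD, n = 3 each), close to the level of lta4h itself. Since ptgs2b and lta4h were chosen by their group difference, which weighs on this distance, nothing is read from the likeness.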

How the data were processed

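RNA-seq of pooled larvae at 3 dpf covered 3 libraries of P2RY11 mutants and 3 of WT siblings, grouped by their labels. The authors trimmed reads with cutadapt, aligned them with HISAT2, quantified them with StringTie and computed FPKM with Ballgown. Versions in the submitters' processing notes are HISAT2 2.1.0, StringTie 1.3.3, cutadapt 1.17 and, for quality control, FastQC 0.11.7. For the assembly, the methods of the paper give GRCz11 of zebrafish and the notes give GRCh37, a human one, while the gene IDs are those of zebrafish. The deposited FPKM covered 19071 genes. The unit stood in the header of 4 tables and was blank in 2. Depth is unknown: at most 15 genes were low in a pair of libraries, too few to look for steps of single reads, and no counting error can be given. Strand use was not given in the sources used here.

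The 18432 genes whose mean FPKM reached 0.5 (639 did not) were compared on log2(FPKM + 1) with limma 3.58.1 in R 4.3.3 (eBayes with trend, no covariate, both directions, Benjamini-Hochberg over all genes, called at an adjusted p under 0.05). The test was tried on simulated data. The study's criteria (fold over 1.5 and unadjusted p under 0.05) served as an alternative, as did pseudocounts of 0.5 and 0.1, no filter and a filter at 1, TPM, median-of-ratios scaling, quantile normalization, no trend, a block on the replicate number and leaving out each library. Named beside the 9 genes were p2ry11, every called gene of a pathway list and those of smallest p up to 4. At most 2 abundant genes of a marker list and the 3 genes most like ptgs2b and lta4h were named too. The genes ptgdsa, ctss2.1, c1qb, mfap4, laptm5, fcer1gl, cyba, gp1bb, gp9 and tubb1 were named after their values were seen. The members, lists and tests were chosen with earlier results of these data known. Of the pathway names, 2 were matched through another symbol (fam213b for prxl2b and ptgesl for ptges2). Of the marker names used above, was, plvapa, plvapb and hbae1.1 were matched likewise, as wasb, plvap, vsg1 and hbae1. Neighbors come from a RefSeq table of the assembly GRCz12tu, from which no coordinates were taken. Figures were drawn with matplotlib 3.10.9.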

Additional observations from a re-analysis of the deposited data

How the results depend on the processing

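Of the 9 genes 1 was higher and 1 lower in the fit reported. The number higher ranged from 0 to 3 with 1 library left out and was 2 by the study's criteria. It was 0 without mutant replicate 3, where 1.05% of all genes were called, and 3 without WT sibling replicate 3, where 28.2% were. In the fit reported 12.2% of all genes were called. That share was 1.54% without mutant replicate 1, 1.49% without mutant replicate 2 and 2.05% without WT sibling replicate 1. The number lower was 0 with a filter at a mean FPKM of 1, where ltc4s was not tested, 2 after median-of-ratios scaling or quantile normalization, and 0 to 1 with 1 library left out. The median of the 9 genes was -0.030 after quantile normalization and 0.072 to 0.33 with 1 library left out. Of the other pathway genes (3 higher, 3 lower), 1 was higher after median-of-ratios scaling, 5 were lower after quantile normalization, and with 1 library left out 0 to 5 were higher and 1 to 4 lower. The difference in the lta4h to ltc4s ratio was 2.48 after quantile normalization. The planned ratio of lta4h to alox5ap was not run. No value turned its direction while called, and the causes of these shifts were not tested.

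Replicate numbers recur in both groups, but deviations of same-numbered libraries correlated at 0.016, 0.072 and 0.14, not all over 0.1, so they were not taken as pairs. With the replicate number as a block, 1 pathway gene was higher (mgst2) and 2 lower (ptgdsb.1 and ptgdsb.2), pla2g7 had an adjusted p of 0.0505, and 5.84% of all genes were called. Depth is unknown, and leaving out WT sibling replicate 3 raised the share of called genes to 28.2%.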
